A study of Mus musculus with 28 samples.

Results

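The comparison described here is the difference between donor-derived and host-derived dendritic cells of the kidney graft cortex, after the difference between the 2 mouse strains in homeostatic cortex has been taken away. For each gene it is donor cortex minus host cortex, minus the value of BALB/c cortex minus C57BL/6 cortex, on the log2 scale of the array signal, and it is called the difference of differences below. The arrays were chosen by their labels, and 14 of the 28 arrays of the series enter it. Donor cells (strain label BALB/c) and host cells (strain label C57BL/6) were sorted from the cortex of renal allografts at day 3 after transplantation, on 3 arrays each. Homeostatic BALB/c cortex and homeostatic C57BL/6 cortex came from healthy kidneys, on 4 arrays each. All cells were released by Collagenase IA and DNase I and sorted as positive for CD45, CD11c and MHCII, with CD45.2 marking donor cells and CD45.1 marking host cells. Each array is a separate mouse number within its group, and a donor array and a host array that share a number (6, 7 or 8) came from the same graft. The labels do not give the CD45 allele of the homeostatic mice, the congenic background of the hosts, and sex and age. Each array is amplified bulk RNA of a sorted population, so fewer cells of a type and less RNA per cell cannot be told apart.

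Kidney cells that carry CD11c and MHC class II include conventional dendritic cells, which take up antigen and present it to T cells, and resident mononuclear phagocytes with macrophage features. After transplantation the donor compartment consists of cells that travelled with the organ, whereas the host compartment enters from the blood of the recipient. Macrophage identity in tissue depends on the CSF1 receptor and is marked by F4/80, complement C1q and scavenger receptors, whereas cytotoxic lymphocytes are marked by granzymes and natural killer receptors, and plasmacytoid dendritic cells by SiglecH.

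For 3 macrophage genes and 1 cytotoxic gene on which the comparison turns, the promoters that RefSeq gives on GRCm38.p6 are shown from 250 bases before the gene's start to 50 bases after it, 5′ to 3′ along the gene's strand. C1qc is at chr4:136892865-136893164 on the minus strand, C3ar1 at chr6:122856108-122856407 on the minus strand, Mrc1 at chr2:14229164-14229463 on the plus strand, and Gzmb at chr14:56262285-56262584 on the minus strand. Capitals mark GAGGAA, the core bound by the myeloid factor PU.1, and TGCTGA, the MAF half-site, each searched on both strands, so that TTCCTC and TCAGCA are matches on the opposite strand. The first 3 genes had positive differences of differences and the last a negative one.
C1qc: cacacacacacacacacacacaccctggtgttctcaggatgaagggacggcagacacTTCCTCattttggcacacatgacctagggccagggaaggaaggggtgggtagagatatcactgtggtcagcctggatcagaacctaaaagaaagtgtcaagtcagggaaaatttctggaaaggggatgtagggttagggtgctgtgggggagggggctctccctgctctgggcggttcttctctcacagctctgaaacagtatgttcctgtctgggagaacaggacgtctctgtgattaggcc
C3ar1: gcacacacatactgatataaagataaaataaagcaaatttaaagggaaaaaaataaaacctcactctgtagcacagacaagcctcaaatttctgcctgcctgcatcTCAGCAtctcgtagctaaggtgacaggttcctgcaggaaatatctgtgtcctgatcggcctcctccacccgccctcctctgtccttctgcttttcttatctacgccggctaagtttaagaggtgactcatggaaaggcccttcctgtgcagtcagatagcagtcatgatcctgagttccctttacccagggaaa
Mrc1: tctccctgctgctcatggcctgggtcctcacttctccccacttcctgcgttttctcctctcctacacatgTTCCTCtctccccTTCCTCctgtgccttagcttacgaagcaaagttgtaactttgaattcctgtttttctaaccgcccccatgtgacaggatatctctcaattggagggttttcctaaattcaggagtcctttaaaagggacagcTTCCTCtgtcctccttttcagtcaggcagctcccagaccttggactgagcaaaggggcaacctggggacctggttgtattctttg
Gzmb: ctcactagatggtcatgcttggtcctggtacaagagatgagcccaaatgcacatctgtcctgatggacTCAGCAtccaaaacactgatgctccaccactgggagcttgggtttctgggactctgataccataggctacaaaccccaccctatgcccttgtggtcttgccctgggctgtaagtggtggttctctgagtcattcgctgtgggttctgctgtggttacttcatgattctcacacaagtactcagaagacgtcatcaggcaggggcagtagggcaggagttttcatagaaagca
GAGGAA occurred 1 time for C1qc and 3 times for Mrc1, and TGCTGA 1 time each for C3ar1 and Gzmb. Over all 32851 promoters of this length, 28.3% held GAGGAA and 19.5% held TGCTGA. Of the genes called higher below, 37 have a promoter in the table, and 16 of these held GAGGAA and 15 held TGCTGA. Of those called lower, 50 have one, and 10 held GAGGAA and 9 held TGCTGA. These matches are a description of the letters only.

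Before the results, 3 measured features of the arrays bear on them. H2-Ea encodes the alpha chain of the I-E class II molecule, and RefSeq annotates the C57BL/6J gene as a transcribed pseudogene. Its log2 signal was 12.89, 12.53 and 12.50 in donor cortex and 10.18, 11.78 and 11.18 in the libraries labelled host, against 12.90, 13.16, 13.33 and 12.98 in BALB/c cortex and 6.76, 6.37, 6.75 and 6.45 in C57BL/6 cortex. All 3 libraries labelled host thus lay far above C57BL/6 for this gene and went against their strain label. Trim12a, which was high in C57BL/6 and low in BALB/c, read 6.50, 6.82 and 5.87 in donor cortex and 10.21, 7.36 and 6.81 in host cortex, against 6.34 to 6.55 in BALB/c and 9.85 to 11.20 in C57BL/6. Only the host array of mouse 6 lay inside the C57BL/6 range. Ifi202b, an interferon-inducible gene that is high in BALB/c, read 10.28, 9.78 and 7.07 in donor cortex and 5.47, 7.40 and 5.34 in host cortex, against 8.60 to 9.17 in BALB/c and 5.24 to 5.41 in C57BL/6. The donor array of mouse 8 and the host array of mouse 7 lay between the 2 homeostatic ranges, and the host array of mouse 6 lay just above the C57BL/6 range. Nnt, which encodes a mitochondrial transhydrogenase and is another strain marker, read 10.39, 11.03 and 10.49 in donor and 10.07, 10.82 and 10.79 in host cortex, against 8.52 to 9.25 in BALB/c and 9.18 to 9.99 in C57BL/6, with a difference of differences of 0.81 ± 0.59 (limma adjusted p = 0.48). Its homeostatic ranges overlapped, so it did not separate the strains here. In homeostatic medulla, 1307 genes (9.11%) differed between the strains, 930 higher in BALB/c (6.48%) and 377 lower (2.63%). Of 14 of them that were higher in BALB/c by at least 2 on the log2 scale, 11 were positive in donor minus host cortex, with a median of 0.36, and 7 in the homeostatic cortex, with a median of 0.11. Of 112 genes lower in BALB/c by as much, 66 were negative in donor minus host cortex, with a median of -0.08, whereas 103 were negative in the homeostatic cortex, with a median of -1.02. For 21 genes that differed by at least 2 in the same direction in homeostatic medulla and homeostatic cortex, and passed in both, the median position between the cortex means of C57BL/6 (0%) and BALB/c (100%) was 91.6, 94.6 and 90.9% in the donor arrays and 41.7, 73.7 and 76.6% in the host arrays. Most of these genes were lower in BALB/c, so that a low host signal counts as a position towards BALB/c. For Klra2 it went past 100% (257.6, 221.9 and 214.0%). Those higher in BALB/c were H2-Ea, Ifi202b, Ifi44l and Gm5150. The 3 host arrays lay at 55.3, 79.9 and 70.6% for H2-Ea and 4.1, 57.4 and 0.6% for Ifi202b. They lay at -0.8, 57.1 and 8.8% for Ifi44l and 8.6, -8.2 and -7.6% for Gm5150. The medians alone thus do not place the host arrays between the strains. The cause of these host values was not tested. The spread of signal over all probesets was smaller in BALB/c cortex (SD 1.504 to 1.64) than in C57BL/6 (1.71 to 1.78), donor (1.73 to 1.84) and host cortex (1.76 to 1.80). Of the sort markers, Ptprc, which encodes CD45, read 12.31, 11.96 and 11.82 in donor and 12.66, 12.11 and 10.35 in host cortex, and Itgax, which encodes CD11c, read 10.23, 9.16 and 10.67 in donor and 10.62, 9.14 and 7.70 in host cortex. The host array of mouse 8 was the lowest for both, and its Itgax signal was at that array's median over all probesets (7.71). Markers of proximal tubule epithelium, which should be absent from a CD45 sort, had a mean signal of 10.82 to 11.76 in donor and 10.49 to 11.84 in host cortex, against 8.23 to 9.97 in BALB/c and 9.34 to 11.03 in C57BL/6 cortex.

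The difference of differences passed an adjusted p of 0.05 (limma, Benjamini-Hochberg over all genes tested) for 111 of 14346 genes, or 0.774%. It was positive for 49 of them (0.342%) and negative for 62 (0.432%), and 2551 genes had an unadjusted p under 0.05. The median over all genes was -0.12, and 6151 of the 14346 were positive. The sign counts of the gene lists below stand beside this share. The split depended on the scaling: after a second quantile normalization, 27 genes were positive and 17 negative, of which 43 had passed before. With the mouse as a fixed replicate block in the grafts, on the cortex arrays alone, 45 genes passed (36 positive and 9 negative), and 30 of these were among the 111. With the mouse as a random replicate block over all arrays, 244 passed, including all 111. The count also turned on single arrays. It was 539 without donor replicate 3 and 206 without BALB/c replicate 2. It was 39 without donor replicate 1, 47 without donor replicate 2, 62 without host replicate 2, 58 and 46 without BALB/c replicates 3 and 4, and 57, 48 and 59 without C57BL/6 replicates 1, 2 and 4.

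The component differences sort these genes into groups. Donor minus host cortex passed for 71 genes (0.495%), 53 of them higher in donor (0.369%) and 18 lower (0.125%). BALB/c minus C57BL/6 cortex passed for 1421 genes (9.91%), 1142 of them higher in BALB/c (7.96%) and 279 lower (1.94%). Donor minus BALB/c cortex passed for 3449 genes (24%), 1135 higher (7.91%) and 2314 lower (16.1%), and host minus C57BL/6 cortex for 594 (4.14%), 288 higher (2.01%) and 306 lower (2.13%). Leaving out 1 array gave 504 (without BALB/c replicate 4) to 1722 genes for strain, 1500 (without donor replicate 2) to 4357 for donor minus BALB/c, and 345 (without host replicate 2) to 872 for host minus C57BL/6. Of the 49 positive genes, 27 were higher in donor than host with no strain call, 16 were called for strain alone, 1 was called in both in opposite directions, and 5 in neither. Set against homeostatic cells of the labelled strain, 25 of the 49 were called in host cells alone, 13 in donor cells alone and 11 in both. A contrast that did not pass does not show that nothing changed. Host cortex was the lowest of the 4 groups in 40 of the 49. Of the 62 negative genes, 51 were called for strain alone, 9 were lower in donor than host alone and 2 in neither. BALB/c cortex was the highest group in 50 of the 62, and 50 were dim, with no cortex group mean over 9, which held for 6 of the 49 positive genes. These component contrasts share arrays with the difference of differences, so their calls are a description of its shape. Host and BALB/c signal enter the difference of differences with a minus sign. A lowest host in positive genes and a highest BALB/c in negative genes are thus partly built into the call. How often all genes tested were dim, or had these groups lowest or highest, was not counted.

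**Figure D1:**
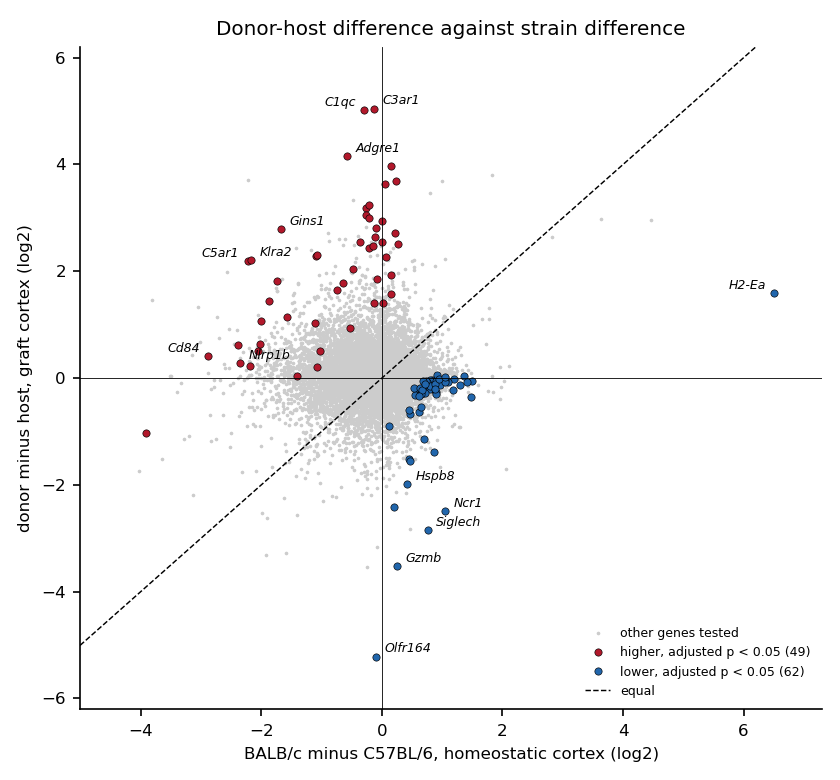
Each point is 1 of 14346 genes, with donor minus host in graft cortex (log2, vertical) against BALB/c minus C57BL/6 in homeostatic cortex (log2, horizontal); the dashed line marks equal differences, and coloured points passed an adjusted p of 0.05. The 49 positive genes lie above the line, many near a strain difference of 0, and the 62 negative genes below it, with a dense group at small donor-host differences and positive strain differences.

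Complement genes were one of the positive groups. C1qc, a chain of the C1q recognition molecule that macrophages secrete, read 12.76, 12.17 and 12.34 in donor cortex and 7.27, 7.39 and 7.55 in host cortex, against 12.55, 12.53, 12.66 and 12.64 in BALB/c and 12.87, 12.78, 12.92 and 12.97 in C57BL/6 cortex. The host arrays lay well below every other array, and donor, BALB/c and C57BL/6 arrays lay close together. The host values were below the medians of the host arrays over all probesets (7.62 to 7.71), and the difference of differences was 5.31 ± 0.35 (SE; limma adjusted p = 5.32e-09). C3ar1, the receptor of the C3a fragment, read 12.23, 11.99 and 11.71 in donor and 6.70, 7.48 and 6.60 in host cortex, against 12.36 to 12.60 in BALB/c and 12.49 to 12.66 in C57BL/6 cortex, with a difference of differences of 5.18 ± 0.41 (limma adjusted p = 8.95e-08). It had the same shape, with host low and the rest together. C1qa, another C1q chain, read 11.74, 10.66 and 11.06 in donor and 7.65, 8.28 and 7.96 in host cortex, and its difference of differences was 3.46 ± 0.57 (limma adjusted p = 0.00481). C1qb, the remaining chain, encoded beside them on chromosome 4, had 1.95 ± 0.62 and did not pass (limma adjusted p = 0.131); its host arrays were uneven, at 8.99, 9.93 and 7.78, against 11.13, 10.29 and 10.59 in donor cortex.

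C5ar1, the receptor of the C5a fragment, differed from these in that a strain difference took part. It read 9.12, 7.88 and 9.44 in donor and 6.53, 6.46 and 6.87 in host cortex, against 8.70, 9.05, 8.24 and 7.69 in BALB/c and 10.19, 10.89, 10.82 and 10.69 in C57BL/6 cortex. Donor was above host by 2.19 ± 0.49 while BALB/c was below C57BL/6 (-2.22 ± 0.43), so that the difference of differences reached 4.42 ± 0.65 (limma adjusted p = 0.0012). It was the 1 gene called in both components in opposite directions. In the complement list as a whole, 4 of 10 tested members passed, all positive, with a median of 1.17.

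Resident macrophage genes followed, with 7 of 20 tested members passing in the positive direction and 1 in the negative, and with 16 of the 20 above 0 (median 1.32). Adgre1, which encodes F4/80, read 11.36, 10.55 and 10.52 in donor and 5.89, 7.45 and 6.61 in host cortex, against 11.48 to 11.90 in BALB/c and 12.16 to 12.55 in C57BL/6 cortex. Its difference of differences was 4.74 ± 0.57 (limma adjusted p = 0.000111). Csf1r, the receptor for CSF1 and IL-34, read 11.41, 10.53 and 11.17 in donor and 8.59, 8.43 and 7.65 in host cortex, against 11.59 to 12.41 in BALB/c and 11.97 to 12.16 in C57BL/6. It differed by 2.90 ± 0.36 (limma adjusted p = 0.000125), with donor below BALB/c (-0.93 ± 0.25) and host below C57BL/6 by much more (-3.83 ± 0.25). Mrc1, the mannose receptor, read 11.17, 11.20 and 9.16 in donor and 6.28, 7.24 and 7.13 in host cortex, against 11.24 to 12.10 in BALB/c and 11.68 to 11.96 in C57BL/6, with a difference of differences of 3.58 ± 0.50 (limma adjusted p = 0.000662). The donor array of mouse 8 was lower than the other donor arrays but above every host array.

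Cx3cr1, the fractalkine receptor of mononuclear phagocytes, read 11.98, 10.99 and 10.37 in donor and 8.47, 9.24 and 8.82 in host cortex, and differed by 2.20 ± 0.42 (limma adjusted p = 0.0125). Apoe, a lipid carrier secreted by macrophages, read 11.48, 11.35 and 11.15 in donor and 9.60, 10.05 and 10.08 in host cortex, and differed by 1.40 ± 0.30 (limma adjusted p = 0.0287). For both genes, donor arrays lay below BALB/c (12.06 to 12.57 for Cx3cr1 and 12.33 to 12.57 for Apoe) and host arrays below donor. Fcgr1, the high-affinity Fc receptor, had 1.73 ± 0.52 and Pf4 had 2.68 ± 0.99, and neither passed (limma adjusted p = 0.111 and 0.171). Timd4, a phosphatidylserine receptor, was the negative member, at -0.88 ± 0.21 (limma adjusted p = 0.0473); it was dim, at 7.45 to 7.72 in donor and 7.62 to 8.19 in host cortex, against 8.21 to 8.53 in BALB/c and 7.61 to 7.83 in C57BL/6. The calls of Timd4 and Apoe were lost in 14 and 10 of 23 alternatives, and that of Cx3cr1 in 2, the fixed block among them. The mean signal of the whole macrophage list was 9.78 to 10.06 in donor and 8.08 to 8.59 in host cortex, against 10.29 to 10.50 in BALB/c and 10.32 to 10.44 in C57BL/6 cortex. Host stood apart from the other groups, and donor lay slightly below homeostatic cells.

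**Figure D2:**
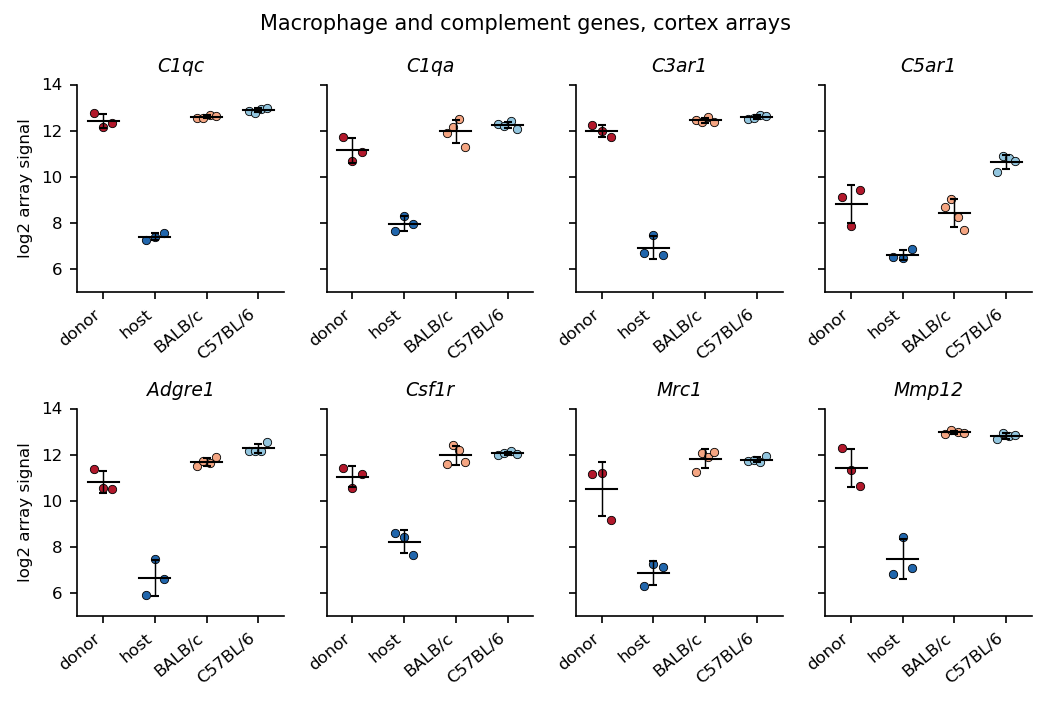
Log2 array signal of 8 macrophage and complement genes in the 14 cortex arrays; each point is an array, the bar the group mean and the whisker 1 SD. Host arrays lie lowest in every panel, at 7.27 to 7.55 for C1qc, and C5ar1 also separates BALB/c from C57BL/6.

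Other genes of macrophage function had the same host-low shape. Mmp12, macrophage elastase, read 12.29, 11.35 and 10.65 in donor and 6.81, 8.44 and 7.10 in host cortex, against 12.89 to 13.07 in BALB/c and 12.66 to 12.93 in C57BL/6, and differed by 3.82 ± 0.64 (limma adjusted p = 0.00481). Mmp13, collagenase 3, read 10.74, 8.47 and 10.01 in donor and 6.78, 6.72 and 6.92 in host cortex, against 12.61 to 13.19 in BALB/c and 12.80 to 12.96 in C57BL/6. It fell in both graft compartments, to different depths, and differed by 2.93 ± 0.57 (limma adjusted p = 0.0153). Ch25h, which makes 25-hydroxycholesterol, read 10.30, 9.32 and 9.09 in donor and 6.46, 6.33 and 6.17 in host cortex, and differed by 3.46 ± 0.62 (limma adjusted p = 0.00865). Donor arrays lay below or within the BALB/c range of 9.69 to 10.63, and host arrays lay together near the low end of the scale. The call of Mmp13 was lost on the cortex arrays alone and without donor replicate 1 (at most an adjusted p of 0.0671 in limma).

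Lyz2, lysozyme M, differed by 2.63 ± 0.49, with 12.01, 11.52 and 10.74 in donor and 8.68, 9.28 and 8.87 in host cortex. Its adjusted p in limma was 0.0124. Leukocyte surface receptors were in the group too: Lilr4b differed by 3.21 ± 0.66, Lilra5 by 2.55 ± 0.51 and Cd72 by 2.76 ± 0.61, with limma adjusted p values of 0.0214, 0.0176 and 0.0358. For Lilra5, donor arrays (11.17, 10.05 and 9.07) lay between host (7.47, 7.48 and 7.70) and BALB/c (12.08 to 12.56). Apobec1, an RNA-editing cytidine deaminase, differed by 2.91 ± 0.60 (limma adjusted p = 0.0215). The calls of Lyz2, Lilr4b, Lilra5, Cd72 and Apobec1 were lost in 1, 7, 4, 10 and 5 of the 23 alternatives, leaving out donor replicate 1 among them for each. Msr1 (3.45 ± 0.82), a class A scavenger receptor, Cd14 (2.24 ± 0.52), a lipopolysaccharide co-receptor, Itgam (1.78 ± 0.42), which encodes CD11b, and Ctsc (3.33 ± 0.76), a protease that activates granule serine proteases, passed near the threshold. Their adjusted p values in limma were 0.0489, 0.043, 0.0473 and 0.0429, and their calls were lost in 14, 15, 16 and 12 of the 23 alternatives, leaving out donor replicate 1 among them for each. Of 14 scavenger receptors 2 passed in the positive direction and 1 in the negative, with 11 above 0 (median 1.00). Of 15 pattern recognition receptors 1 passed, in the positive direction, with 12 above 0 (median 0.85), and of 13 myeloid chemokine genes none passed (median 0.97), with Ccl12 at 3.05 ± 1.10 (limma adjusted p = 0.164).

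Among dendritic cell genes, Cadm1, an adhesion molecule of type 1 conventional dendritic cells, read 11.94, 10.95 and 11.99 in donor and 9.92, 9.59 and 9.83 in host cortex, against 11.79 to 12.45 in BALB/c and 12.19 to 12.47 in C57BL/6, and differed by 1.93 ± 0.32 (limma adjusted p = 0.00481). It was the 1 member of 11 in that list to pass, and the list median of -0.42 had the other sign. Irf8, a transcription factor that type 1 and plasmacytoid dendritic cells need, had -1.72 ± 0.68 and did not pass (limma adjusted p = 0.2). Mgl2, a galactose lectin of type 2 conventional dendritic cells and of macrophages, differed by 3.37 ± 0.75 and was the 1 member of 8 in its list to pass (limma adjusted p = 0.0358), a call lost in 12 of 23 alternatives. Clec4a1, a C-type lectin of myeloid cells, differed by 3.38 ± 0.75 and lost its call in 13 of 23. No pan dendritic cell marker passed among 8 tested (median -0.36), and the mean signal of that list was 9.04 to 9.33 in donor and 9.29 to 11.33 in host cortex, against 9.01 to 9.54 in BALB/c and 9.91 to 10.26 in C57BL/6. Flt3, the growth factor receptor that conventional dendritic cells depend on, read 7.39, 6.90 and 7.57 in donor and 11.53, 9.01 and 7.50 in host cortex, with a difference of differences of -1.99 ± 0.83 (limma adjusted p = 0.22). Host arrays spread widely, that of mouse 8 lying within the donor range.

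A further set of positive genes was set apart by a strain difference in homeostatic cortex that the graft arrays did not show. Klra2, a Ly49 family receptor, read 10.45, 9.72 and 8.43 in donor and 6.75, 7.52 and 7.70 in host cortex, against 10.97, 11.00, 9.01 and 9.71 in BALB/c and 12.30, 12.34, 12.56 and 12.16 in C57BL/6. BALB/c was below C57BL/6 (-2.17 ± 0.52), donor minus host was 2.21 ± 0.60 (limma adjusted p = 0.154), and the difference of differences was 4.38 ± 0.79 (limma adjusted p = 0.00865). Host lay at the low end and C57BL/6, its labelled strain, at the high end. Ly49 genes are near-identical copies of each other, and their probes may read more than 1 of them. Nlrp1b, an inflammasome sensor that is polymorphic between strains, read 7.47, 6.77 and 6.83 in donor and 6.77, 6.78 and 6.69 in host cortex, against 7.15 to 7.46 in BALB/c and 9.03 to 10.17 in C57BL/6. Its difference of differences of 2.63 ± 0.43 (limma adjusted p = 0.00481) thus came with a donor minus host value of only 0.27 ± 0.33. Cd84, a SLAM family receptor, behaved in the same way, with 6.58, 7.15 and 6.35 in donor and 6.33, 6.29 and 6.23 in host cortex, against 6.77 to 9.07 in BALB/c and 10.03 to 10.92 in C57BL/6, and a difference of differences of 3.29 ± 0.61 (limma adjusted p = 0.0124). The calls of Klra2 and Cd84 were lost with the fixed block, and that of Cd84 also on the cortex arrays alone. For Nlrp1b and Cd84 all 6 graft arrays lay below the C57BL/6 range, the host arrays included.

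Mctp1 (2.67 ± 0.54), a membrane protein with C2 domains, Tbxas1 (2.72 ± 0.55), thromboxane synthase, and Hacd4 (3.32 ± 0.71), an enzyme of very long chain fatty acid synthesis, were also called for strain and for host against C57BL/6, with limma adjusted p values of 0.0179, 0.0179 and 0.0287 for the difference of differences and calls lost in 6, 3 and 10 of the 23 alternatives. Fbxw11, an F-box protein of a ubiquitin ligase, had another shape: donor read 8.61, 8.94 and 9.38 and host 8.45, 8.44 and 8.51, against 6.95 to 7.66 in BALB/c and 8.89 to 9.85 in C57BL/6. Donor was above BALB/c by 1.65 ± 0.35, host minus C57BL/6 was -0.91 ± 0.35 and did not pass (limma adjusted p = 0.184), and the difference of differences was 2.57 ± 0.50 (limma adjusted p = 0.0147). Slc12a2, the Na-K-Cl cotransporter of basolateral membranes, followed it with 3.57 ± 0.68 (limma adjusted p = 0.0125) and Stard4, a cholesterol transfer protein, with 3.01 ± 0.71 (limma adjusted p = 0.0465). The call of Stard4 was lost in 13 of 23 alternatives, and that of Slc12a2 in 2.

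Clrn3 and Map3k13 were high in donor cortex alone. Clrn3, a clarin family membrane protein, read 9.98, 9.53 and 10.55 in donor and 7.69, 7.59 and 7.47 in host cortex, against 7.32 to 7.93 in BALB/c and 7.03 to 9.16 in C57BL/6, and differed by 2.65 ± 0.47 (limma adjusted p = 0.00865). Map3k13, a kinase upstream of JNK, read 8.54, 8.50 and 7.94 in donor and 6.64, 6.65 and 6.98 in host cortex, against 6.70 to 7.28 in BALB/c and 6.67 to 6.92 in C57BL/6, and differed by 1.42 ± 0.25 (limma adjusted p = 0.00799). In both genes every donor array lay above all 11 other cortex arrays. Their calls were lost on the cortex arrays alone and with the fixed block. Iyd, iodotyrosine deiodinase, differed by 2.52 ± 0.59, with donor at 8.83, 9.54 and 10.90 and host at 6.82, 7.34 and 9.01. The host array of mouse 8 lay above the lowest donor array, and the call was lost in 11 of 22 alternatives. Markers of proximal tubule moved with the graft arrays: of 17 tested none passed in the difference of differences, though 16 were above 0, with a median of 1.04. Among the 17, 12 were higher in donor than BALB/c cortex and 3 in host than C57BL/6 cortex. Lrp2, the megalin receptor of proximal tubule, read 12.32, 12.29 and 12.82 in donor and 11.71, 12.60 and 12.98 in host cortex, against 7.22 to 10.35 in BALB/c and 9.07 to 11.68 in C57BL/6, and had 2.40 ± 0.79 (limma adjusted p = 0.138). The part of tubule RNA in the values of the donor-high genes was not tested.

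Cell cycle genes leaned to the positive side. Of 29 tested, 27 were positive, against 6151 of all 14346 genes, with a median of 0.93, but 1 passed. Bub1b, a mitotic checkpoint kinase, read 10.10, 8.75 and 9.16 in donor and 8.43, 7.15 and 7.10 in host cortex, against 7.32 to 7.91 in BALB/c and 7.69 to 8.90 in C57BL/6, and differed by 2.42 ± 0.54 (limma adjusted p = 0.0358). Gins1, a subunit of the replicative helicase complex outside that list, read 9.38, 8.75 and 7.91 in donor and 5.91, 6.21 and 5.53 in host cortex, and differed by 4.47 ± 1.05 (limma adjusted p = 0.0446). Neither its donor minus host difference nor its strain difference passed, while donor was called above BALB/c. Mki67, the proliferation antigen, had 2.22 ± 0.61 and did not pass (limma adjusted p = 0.0833). The list mean was 9.75, 8.65 and 7.95 in donor and 8.49, 7.55 and 7.60 in host cortex, and the array of mouse 6 was the highest in donor and in host. The calls of Bub1b and Gins1 were lost in 11 of 23 and 12 of 22 alternatives, leaving out donor replicate 1 among them.

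On the negative side, cytotoxic lymphocyte genes were high in the libraries labelled host. Gzmb, granzyme B, read 6.58, 6.57 and 6.96 in donor and 11.49, 11.25 and 7.96 in host cortex, against 6.89 to 7.73 in BALB/c and 6.68 to 7.52 in C57BL/6. Its difference of differences was -3.77 ± 0.71 (limma adjusted p = 0.0125), and the host array of mouse 8 was only slightly above the other groups. Ncr1, the natural killer receptor NKp46, read 6.26, 6.12 and 6.23 in donor and 8.56, 8.81 and 8.72 in host cortex, against 9.43, 6.60, 7.01 and 7.17 in BALB/c and 6.21, 6.50, 7.32 and 5.98 in C57BL/6, and differed by -3.54 ± 0.62 (limma adjusted p = 0.00799). BALB/c replicate 1 lay above the host arrays. Cst7, cystatin F, an inhibitor of cathepsins in cytotoxic cells, read 7.25, 7.01 and 7.46 in donor and 9.01, 9.29 and 8.09 in host cortex, against 7.83 to 8.09 in BALB/c and 7.33 to 7.53 in C57BL/6, and differed by -2.02 ± 0.29 (limma adjusted p = 0.001). Of 9 natural killer and cytotoxic markers tested, 2 passed, both negative, all 9 were below 0, and the median was -1.69. Nkg7 (-2.55 ± 0.62) and the chemokine Xcl1 (-3.30 ± 1.10) did not pass (limma adjusted p = 0.052 and 0.141). The list mean was 7.17 to 7.57 in donor and 10.29, 10.29 and 8.69 in host cortex, against 7.57 to 8.28 in BALB/c and 7.77 to 8.65 in C57BL/6. The calls of Gzmb and Ncr1, though not that of Cst7, were lost with the fixed block. No T cell marker passed among 15 tested, and none of the 15 was above 0 (median -0.64), with Cd8a at -1.68 ± 0.50 (limma adjusted p = 0.107).

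Plasmacytoid dendritic cell genes gave 2 negative calls among 8 tested, with a median of -1.48. Siglech, the sialic acid lectin that marks these cells, read 7.82, 7.87 and 7.75 in donor and 12.78, 11.01 and 8.19 in host cortex, against 8.35 to 9.42 in BALB/c and 7.89 to 8.03 in C57BL/6, and differed by -3.61 ± 0.84 (limma adjusted p = 0.043). Cox6a2, a respiratory chain subunit also expressed in these cells, differed by -1.96 ± 0.44 (limma adjusted p = 0.0408). The host values differed between mice, with mouse 6 highest and mouse 8 near the donor level, and the calls were lost in 15 and 12 of 23 alternatives. Ccr9, a homing receptor of plasmacytoid cells, with -3.08 ± 0.90, and Bst2, tetherin, with -1.49 ± 0.47, did not pass (limma adjusted p = 0.1 and 0.126). The list mean was 8.34 to 8.37 in donor and 11.08, 10.18 and 8.44 in host cortex.

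Hspb8, a small heat shock protein, read 7.40, 7.76 and 7.51 in donor and 10.15, 9.03 and 9.46 in host cortex, against 7.13 to 7.52 in BALB/c and 6.83 to 6.96 in C57BL/6, and differed by -2.41 ± 0.29 (limma adjusted p = 0.000106). All 3 host arrays lay above all other cortex arrays. Olfr164, an olfactory receptor gene, had the most negative value, -5.12 ± 0.83 (limma adjusted p = 0.00432), with 5.40, 5.82 and 5.90 in donor and 11.73, 10.47 and 10.57 in host cortex, against 5.54 to 6.06 in BALB/c and 5.63 to 6.30 in C57BL/6. Gria3, an AMPA receptor subunit, read 9.08, 8.85 and 5.99 in donor and 11.05, 10.25 and 9.87 in host cortex, against 6.02 to 6.47 in BALB/c and 5.98 to 6.26 in C57BL/6. It rose in both graft compartments, more in host, and differed by -2.62 ± 0.62 (limma adjusted p = 0.0459), a call lost in 12 of 22 alternatives.

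H2-Ea had the largest strain difference among the called genes, 6.51 ± 0.44, and a donor minus host difference of 1.59 ± 0.50, which left a difference of differences of -4.92 ± 0.67 (limma adjusted p = 0.000463). It passed without each of the 3 libraries labelled host in turn. No other member of the class II presentation list passed among 10 tested, and 9 of the 10 were positive, with a median of 0.52. H2-Ab1, the I-A beta chain used for the sort, read 11.07, 11.11 and 11.25 in donor and 12.57, 11.45 and 11.23 in host cortex, with a difference of differences of 0.62 ± 0.56 (limma adjusted p = 0.581). H2-Ob, a subunit of the peptide-loading inhibitor DO, had 1.65 ± 0.59 (limma adjusted p = 0.161).

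**Figure D3:**
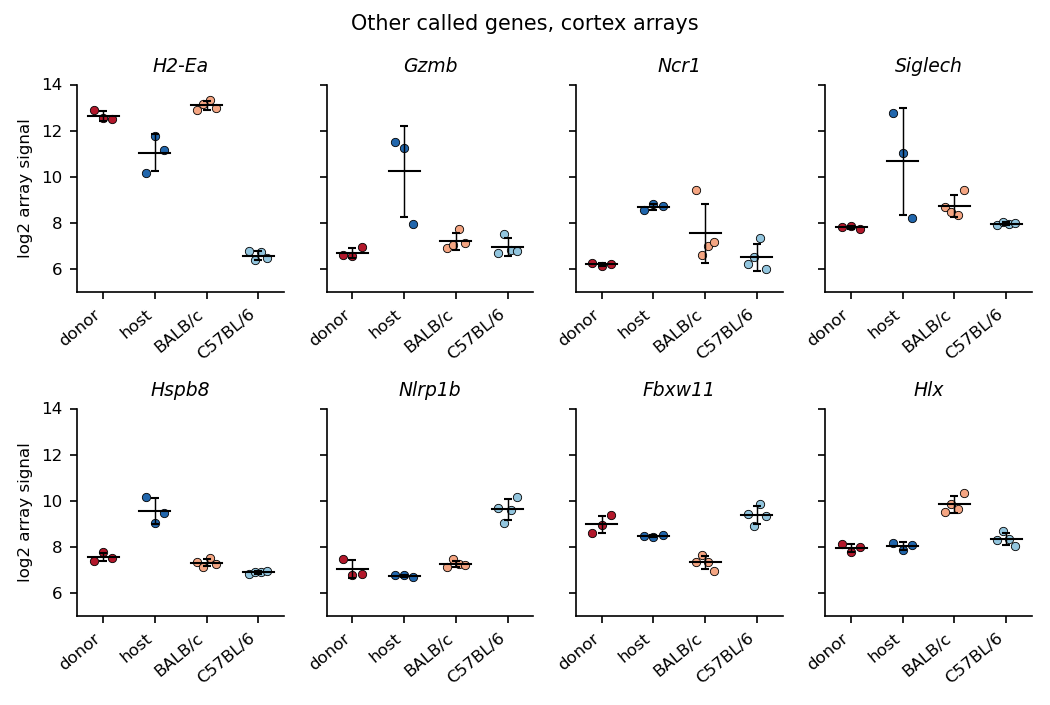
Log2 array signal of 8 other called genes in the 14 cortex arrays; points are arrays, bars group means and whiskers 1 SD. H2-Ea shows host arrays (10.18 to 11.78) between BALB/c and C57BL/6, Gzmb and Siglech a wide spread among host arrays, Hspb8 all host arrays above the rest, Nlrp1b a high level in C57BL/6 alone, Fbxw11 a low level and Hlx a high level in BALB/c alone.

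Most of the 62 negative genes were of another kind, brighter in homeostatic BALB/c cortex than in the other groups. Most were also dim, though Hlx, Prp2 and Iqca, named here, exceeded a group mean of 9. Hlx, a homeobox transcription factor, read 8.13, 7.79 and 7.98 in donor and 8.16, 7.85 and 8.07 in host cortex, against 9.52, 9.85, 9.65 and 10.35 in BALB/c and 8.31, 8.70, 8.32 and 8.05 in C57BL/6, and differed by -1.56 ± 0.28 (limma adjusted p = 0.00865). Prp2, a proline-rich protein gene, differed by -1.84 ± 0.33 with 8.84 to 9.58 in donor and 9.38 to 9.77 in host cortex, against 10.73 to 11.72 in BALB/c and 9.46 to 10.18 in C57BL/6. Fgf18, a growth factor, differed by -1.20 ± 0.23 and Iqca by -1.47 ± 0.29 (limma adjusted p = 0.0149 and 0.0147). In these genes donor and host were alike or nearly so, and BALB/c stood above the other 3 groups. Cd300c, a myeloid immunoglobulin-like receptor, lay between the kinds, with 7.46, 7.43 and 8.04 in donor and 9.56, 8.71 and 8.11 in host cortex, against 8.68 to 9.42 in BALB/c and 8.06 to 8.35 in C57BL/6, and differed by -1.85 ± 0.39 (limma adjusted p = 0.025). The calls of Hlx, Prp2, Fgf18, Iqca and Cd300c were lost in 2, 2, 4, 3 and 6 of the 23 alternatives, the fixed block among them for each. For Iqca the call was also lost with the mean of its probesets, and its value ranged from -1.70 to -0.80 over the alternatives. With a stricter filter on dim genes 11 negative genes passed in place of 62, and without any filter 407. The BALB/c arrays, on which these genes were brighter, were also those with the smaller spread of signal over all probesets, and the part of that spread in these values was not tested.

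Interferon response genes gave no call. None of 17 interferon-gamma response genes passed (median 0.85), and none of 24 type I interferon response genes (median 0.68). Both lists leaned to the positive side, with 13 of the 17 and 21 of the 24 above 0, against 6151 of all 14346 genes. Of the 17, 10 were higher and 1 lower in donor than BALB/c cortex. In host against C57BL/6 cortex, 3 were higher and 1 lower. Iigp1, an interferon-gamma-induced GTPase, read 12.58, 12.78 and 11.62 in donor and 12.30, 12.69 and 12.46 in host cortex, against 6.73 to 7.93 in BALB/c and 9.76 to 10.16 in C57BL/6. Its difference of differences was 2.62 ± 0.79 (limma adjusted p = 0.111). Donor and host arrays overlapped, and BALB/c was below C57BL/6 (-2.78 ± 0.52). The chemokine Cxcl10 had 1.69 ± 0.85 (limma adjusted p = 0.298) and Xaf1, induced by type I interferon, 2.31 ± 0.63 (limma adjusted p = 0.0833). Among class I presentation genes, none of 13 passed (median 0.08), nor did any of 22 leukocyte-wide genes (median 0.27).

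**Figure D4:**
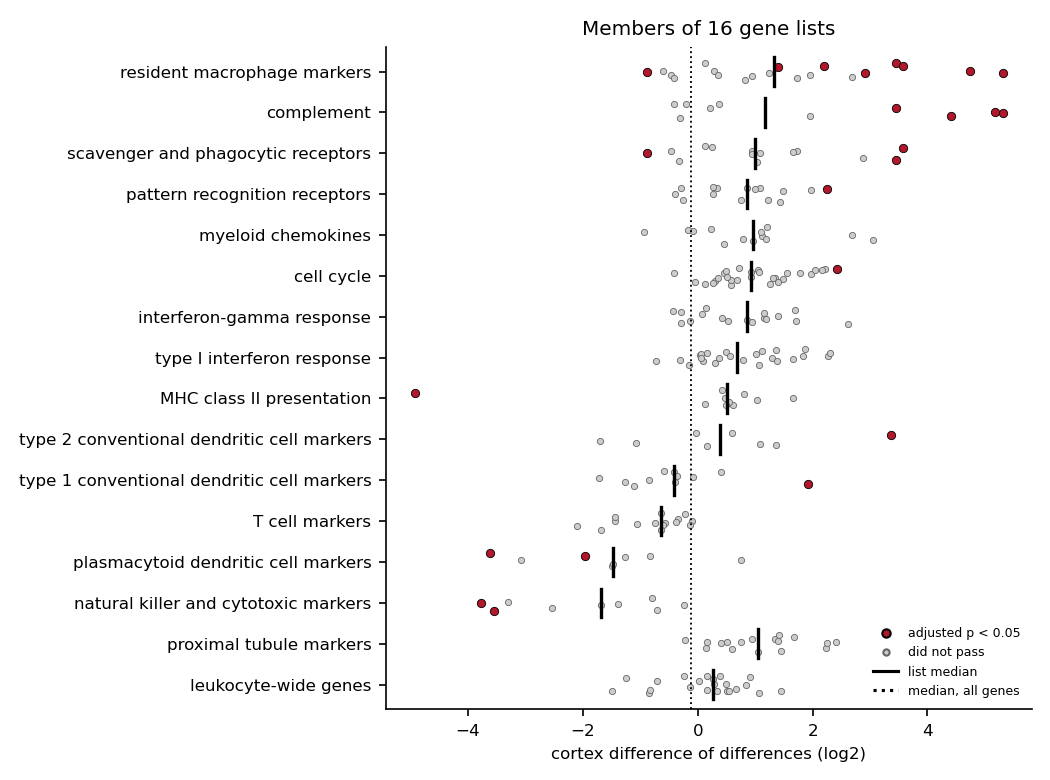
Each point is a tested member of 1 of 16 gene lists, placed by its cortex difference of differences (log2); red points passed an adjusted p of 0.05, the vertical bar is the list median and the dotted line the median of all genes, -0.12. Macrophage and complement lists have red points on the right and medians of 1.32 and 1.17, and plasmacytoid and cytotoxic lists have red points on the left and medians of -1.48 and -1.69.

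The same difference of differences in graft medulla, from other arrays of the same mice, passed for 163 genes (1.14%), 108 positive (0.753%) and 55 negative (0.383%). That count was 90 without donor medulla replicate 3, and 104 and 98 without C57BL/6 medulla replicates 1 and 4. Of the 49 genes positive in cortex, 45 had the same sign in medulla, as had 61 of the 62 negative ones. Over all 14346 genes, 5418 were positive in medulla and the median there was -0.19. Of the 49, 25 were also called positive in medulla, 51.0% of the cortex genes and 23.1% of the 108. These included C1qa, C1qc, C3ar1, C5ar1, Adgre1, Csf1r, Mrc1, Cx3cr1, Apoe, Klra2, Nlrp1b and Cd84. C1qc had 4.24 ± 0.35 in medulla, C3ar1 4.91 ± 0.41, Adgre1 4.43 ± 0.57 and C5ar1 5.10 ± 0.65. However, leukocyte signal was low in host medulla. Leukocyte-wide genes averaged 8.60 in host, 9.73 in donor, 10.85 in BALB/c and 11.39 in C57BL/6 medulla, against 10.18 in host cortex. Of the 22 tested, 5 were called positive in medulla and none in cortex. Epithelium-wide genes averaged 10.52 in host, 10.19 in donor, 8.70 in BALB/c and 8.08 in C57BL/6 medulla. The part of cell composition in the shared calls was not tested. Of the 62 negative genes, 1 was called negative in medulla, Iqca, which is 1.61% of the cortex genes and 1.82% of the 55. The cortex call of Iqca was lost when the probesets of the gene were averaged. Fbxw11 was 0.15 ± 0.50, Clrn3 -0.64 ± 0.47 and Gzmb -0.82 ± 0.71 in medulla, none past the threshold. A pass in cortex alone does not show that the regions differ. The test of cortex minus medulla passed for 3 genes of 14346 (0.0209%), all negative, with 789 at an unadjusted p under 0.05. That count was 10 without host cortex replicate 3 or without donor medulla replicate 2, and 15 without host medulla replicate 3. It was 1 without donor cortex replicate 2, without BALB/c cortex replicate 2, 3 or 4, and without C57BL/6 cortex replicate 1, 3 or 4. It was also 1 without donor medulla replicate 1, host medulla replicate 2, BALB/c medulla replicate 1 or any 1 of the 4 C57BL/6 medulla arrays.

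Hspb8 was the 1 of these 3 that was called in cortex, with cortex minus medulla at -2.30 ± 0.40 (limma adjusted p = 0.0457). This adjusted p was the largest of the 3 and near the threshold. Which gene still passed in the settings that left 1 was not followed. The medulla value of Hspb8 was -0.11 ± 0.29, with 7.66, 6.94 and 7.07 in donor and 7.06, 7.13 and 7.38 in host medulla. The host arrays lay within the donor range there. Gatm, which makes the creatine precursor guanidinoacetate in proximal tubule, had -4.71 ± 0.62 (limma adjusted p = 0.00196), and Lcp1, the leukocyte actin-bundling protein L-plastin, -2.95 ± 0.49 (limma adjusted p = 0.0313). Neither passed in cortex, where Gatm had 0.16 ± 0.44 and Lcp1 0.67 ± 0.35. Gatm read 11.18, 9.63 and 11.85 in donor and 6.35, 5.97 and 5.87 in host medulla, and Lcp1 12.47, 11.39 and 12.91 in donor and 9.45, 8.63 and 8.81 in host medulla. Both were low in host medulla. In homeostatic medulla, Gatm averaged 11.86 in BALB/c and 11.90 in C57BL/6, and Lcp1 12.82 and 13.14. The proximal tubule list, which holds Gatm, averaged 8.04 and 8.06 there. The source of the Gatm signal in medulla was not tested.

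**Figure D5:**
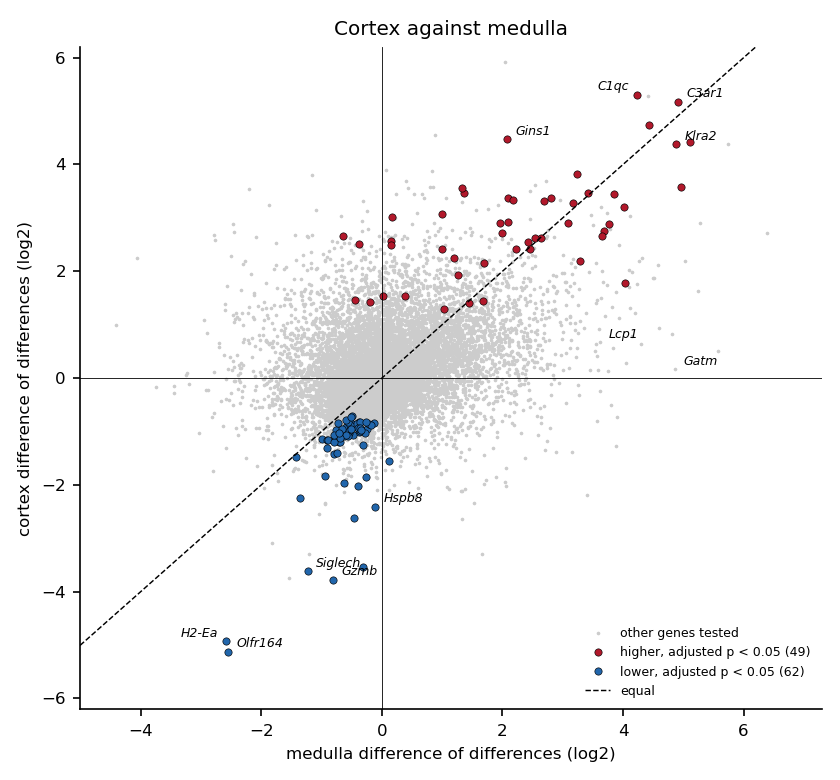
Each point is 1 of 14346 genes, with the difference of differences in cortex (log2, vertical) against that in medulla (log2, horizontal); coloured points passed in cortex. C1qc, C3ar1 and Klra2 lie near the dashed line of equal values, whereas Hspb8 lies at -2.41 in cortex and -0.11 in medulla, and Gatm and Lcp1 lie far to the right.

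Over the 23 alternatives, 16 of the 111 genes passed in every 1 that tested them. The 12 positive ones were C1qc, C1qa, C3ar1, C5ar1, Adgre1, Csf1r, Mrc1, Mmp12, Ch25h, Cadm1, Fbxw11 and Nlrp1b, and the 4 negative ones were H2-Ea, Cst7, Hspb8 and Olfr164. Olfr164 and the genes Trim12a, Lyz2, Itgam, Mmp13, Cd72, Lilr4b, Lilra5, Apobec1, Nlrp1b, Cd84, Mctp1, Fbxw11, Stard4, Tbxas1, Hacd4, Map3k13, Iyd, Clrn3, C1qb, Bst2, Xcl1 and Gatm fall outside the rule for named genes and were chosen after their values were seen.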

How the data were processed

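Amplified RNA of sorted kidney cells was hybridised to 28 Affymetrix arrays, and the 14 cortex arrays enter the comparison. The deposited values are log2 array signal, which the authors made with RMA (oligo), per the submitters' processing notes; no version is stated there. They were used as given, and the number of arrays limits the precision. Of 22549 probesets, 20646 have 1 gene symbol in the platform annotation, 551 have several and 1352 none. They cover 19272 symbols, 19227 of which matched the RefSeq gene table, and the probeset with the highest mean was kept for each of the 810 genes with more than 1.

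A gene was tested when it lay above its array's 40th percentile in at least 3 arrays, which left 14346. limma 3.58.1 in R 4.3.3 fitted 1 mean for each of 8 groups to the 28 arrays, leaving 20 residual degrees of freedom. Contrasts were tested 2-sided with Benjamini-Hochberg adjustment at 0.05. The fit was tested on simulated data with independent noise of equal spread on every array and shifts in donor cortex alone. That test cannot speak to arrays that share a mouse or to groups of unequal spread. No arrays held identical values. Donor and host arrays of 1 mouse number come from the same graft per the labels, and their residuals correlated at 0.28, 0.12 and 0.27 for the 3 mice. The main fit had no term for mouse and treated the 28 arrays as independent, although each mouse gave more than 1 array. P-values thus measure the spread between arrays within groups, pooled over the 8 groups of cortex and medulla.

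Named genes were the 15 highest and the 15 lowest of those called, without predicted genes, pseudogenes and olfactory receptors, up to 4 members of each list with the smallest p, and the sort and strain markers. The members and gene lists were chosen with earlier results of these data known. Genes without a probeset of their own are not used here. Alternatives were a random and a fixed mouse block, the cortex arrays alone, no filter and a strict filter, array weights, a robust variance trend, a second quantile normalization, the mean of a gene's probesets and leaving out each cortex array; leaving out each medulla array was added after seeing the data.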

Additional observations from a re-analysis of the deposited data

Results flagged for a closer look

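The donor-host difference differed from the strain difference in cortex for 111 genes, by limma's interaction contrast. The cortex value differed from the medulla value for Gatm (-4.71), Lcp1 (-2.95) and Hspb8 (-2.30) on the log2 scale, by the contrast of the 2 interactions.

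Among 158 sets of 4 homeostatic cortex arrays for the genes of the text, 7 held an array far from the other 3, where chance flags about 5% of sets. Adgre1 read 12.55 in C57BL/6 replicate 4, above the other 3, and Cd14 read 11.04 in C57BL/6 replicate 1, below them. Stard4 read 8.15 in BALB/c replicate 1, above the others, Iigp1 9.76 in C57BL/6 replicate 4, below them, and Cd8a 9.28 in C57BL/6 replicate 2, above them. BALB/c replicate 2 was high for Itgax (11.85) and Lcp1 (13.05).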

How the results depend on the processing

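Counts of genes called moved by more than 1.5 times under several settings. For the cortex difference of differences, 111 in the main setting became 244 with the mouse as a random replicate block, 45 with it as a fixed block, 37 on cortex arrays only, 498 with no filter, 47 with a strict filter, 44 after a second quantile normalization and 2046 with array weights. For donor minus host cortex, 71 became 41 on cortex arrays only, 43 with the strict filter, 43 after the second normalization and 212 with array weights. For BALB/c minus C57BL/6, 1421 became 3897 with no filter, 395 with the strict filter, 827 after the second normalization and 2702 with weights. For donor minus BALB/c, 3449 became 6427, 1796 and 5650 with no filter, the strict filter and weights. With weights, host minus C57BL/6 gave 1402 in place of 594, the medulla 350 in place of 163, and cortex minus medulla 8 in place of 3, which the second normalization turned into 1 (759 genes at an unadjusted p under 0.05 by limma). Leaving out 1 cortex array gave 39 to 539 genes for the cortex difference of differences, 53 to 103 for donor minus host, 504 to 1722 for strain, 1500 to 4357 for donor minus BALB/c, 345 to 872 for host minus C57BL/6, 133 to 200 for the medulla, where cortex arrays enter through the shared spread alone, and 1 to 10 for cortex minus medulla. Leaving out 1 medulla array, an alternative chosen after seeing the data, gave 90 to 201 for the medulla and 1 to 15 for cortex minus medulla. The lowest of the first range was without donor replicate 1 and the highest without donor replicate 3. Array weights gave donor replicate 3 a weight of 0.30. The filters differ by construction in the genes tested (19272 and 9991); the cause of the other moves was not tested. Of 79 genes of the text recomputed under the 23 alternatives for cortex, those that changed sign were Ifi202b, at -0.66 as reported, 0.33 without donor replicate 3 and 0.01 without host replicate 2 (-1.27 to 0.33 over arrays left out), and Ptprc, at 0.52 as reported and -0.16 without host replicate 3 (-0.16 to 0.99). None of these values passed.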
